A study of Mus musculus with 10 samples.

Results

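The genes described here are 33 mouse genes of sterol synthesis and its control, out of 53465 genes counted in every library. They were taken as a fixed list of symbols, and all 33 were found and passed the filter on low counts. By role they are 7 enzymes of the mevalonate steps, 11 enzymes of the squalene and sterol steps and 5 regulators of the SREBP transcription factors. A further 5 desaturate or elongate fatty acids, and 5 transport, export, esterify or sense sterols.

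The cells were CD8 T cells of OT-I mice (C57BL/6; spleen and peripheral lymph nodes), which carry a transgenic T cell receptor for the ovalbumin peptide SIINFEKL. All were activated for 3 days with that peptide and recombinant human interleukin-2 in medium with 25 mM glucose and then moved to 1 mM glucose. Libraries labelled d5 had 24 h of this restriction and those labelled d9 had 120 h, and 5 mM sodium acetate was present or absent for its last day. All groups were restimulated with PMA and ionomycin for 4 h before polyadenylated RNA was taken, so no group shows unstimulated cells, and cells kept in 25 mM glucose are not analysed here. The groups were d5 (n = 2), d5 with acetate (n = 2), d9 (n = 3) and d9 with acetate (n = 3). At d5 acetate was present for the whole restriction, while at d9 it came after earlier restriction without it. Whether replicates came from different cultures or mice is not labelled, and p-values then describe the spread among these samples only, which may be technical.

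Sterols are built from acetyl-CoA through mevalonate, isoprenoids, squalene and lanosterol. The membrane-bound SREBP proteins, encoded by Srebf1 and Srebf2, are carried by the escort protein Scap to be cleaved when sterol is scarce, and then activate genes of sterol and fatty acid synthesis. Insig proteins hold Scap in the endoplasmic reticulum when sterol is plentiful, and oxysterols activate the LXR receptors, which raise sterol export genes. T cells induce this programme when activated, since dividing cells need membrane.

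Depth was 16.59 to 24.66 M counts per library. The markers of CD8 T cells summed to 3487 to 4648 CPM (counts scaled to library size by TMM) in every library, and those of dendritic cells to 1.603 to 3.53 CPM. B cell markers, mostly Cd79b, summed to 1.16 to 1.52 CPM at d5, 3.08 to 4.58 CPM at d5 with acetate, 1.14 to 1.65 CPM at d9 and 0.717 to 1.33 CPM at d9 with acetate, and Cd79b was called higher with acetate at d5 (log2 1.64 ± 0.35, adjusted p = 0.0499). Of the neutrophil markers only Ly6g had counts, in no d5 library, with 0.522 to 1.25 CPM at d9 and 0.0853 to 0.550 CPM at d9 with acetate. The dendritic cell markers Clec9a and Siglech and the neutrophil markers S100a8 and S100a9 were at 0 in every library. NK cell markers, nearly all from Klrb1c, summed to 1.23 to 1.88 CPM at d5 and 5.21 to 6.05 CPM at d5 with acetate, and to 9.05 to 13.8 CPM and 18.2 to 25.9 CPM in the same order at d9. Macrophage markers, in most libraries nearly all from Cd68, summed to 9.43 to 12.4 CPM at d5 and 4.68 to 6.56 CPM at d5 with acetate, and to 8.09 to 10.4 CPM and 6.14 to 6.74 CPM at d9. In d5 acetate replicate 1, at 6.56 CPM, Cd68 held 4.48 CPM, and Lyz2 (0.897), Adgre1 (0.504) and Csf1r (0.448 CPM) were highest of all libraries. In the edgeR quasi-likelihood test 3 other markers were called with acetate at d5. Klrb1c (log2 1.86 ± 0.31, adjusted p = 0.0224) and the CD8 T cell marker Cd8a (0.75 ± 0.15, adjusted p = 0.0385) were higher. Cd68 was lower (-1.20 ± 0.20, adjusted p = 0.0228). At d9 no marker was called with acetate. With the days averaged, Klrb1c (log2 1.40) and 1 of 9 CD8 T cell markers were called higher and 1 macrophage marker lower. From d5 to d9 without acetate, the CD4 T cell marker Cd4 (log2 2.18), Klrb1c (2.86) and Ly6g (7.23) were called higher. So were 5 of 9 CD8 T cell markers. With acetate Klrb1c (1.93), Ly6g (6.01) and 2 of 9 CD8 T cell markers were higher and Cd79b (-1.75) lower. Without acetate Cd4 held 0.234 to 0.331 CPM at d5 and 1.10 to 1.70 CPM at d9. The part of any of these cell types in the results was not tested. At d9, replicate 1 without acetate and replicate 2 with acetate stood apart, with ribosomal protein genes holding 15.5% and 15.1% of their counts, and 11.2 to 12.7% of those of the other 4 libraries. Calls and directions without these 2 libraries are given beside those with all libraries. In bulk RNA, fewer cells that express a gene and less of its RNA per cell cannot be told apart.

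On the length-scaled level (TPM, computed here from the counts and exon lengths), group means of the members ran from 0.380 to 445 TPM. Scd2, a stearoyl-CoA desaturase that makes monounsaturated fatty acids, had the highest mean level in the d5 acetate, d9 and d9 acetate groups, at 182, 294 and 445 TPM. At d5 Srebf2 (125 ± 9.58 TPM, SD, n = 2) and Scd2 (117 ± 1.24 TPM) were the highest and differed by less than the SD of Srebf2. The regulator genes Srebf2, Srebf1 and Nr1h2, which encodes LXR beta, averaged 103 to 154, 67.9 to 105 and 92.9 to 115 TPM over the 4 groups. Among the enzymes of the sterol pathway Ebp was the highest at d5, at 73.4 TPM, and Mvd at d9 with acetate, at 65.4 TPM against 61.3 TPM for Ebp, a pair whose libraries overlapped there. The lowest were Elovl6, which elongates palmitate, at 0.515 to 1.30 TPM, and the sterol exporter Abca1, at 0.380 to 1.14 TPM.

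**Figure D1:**
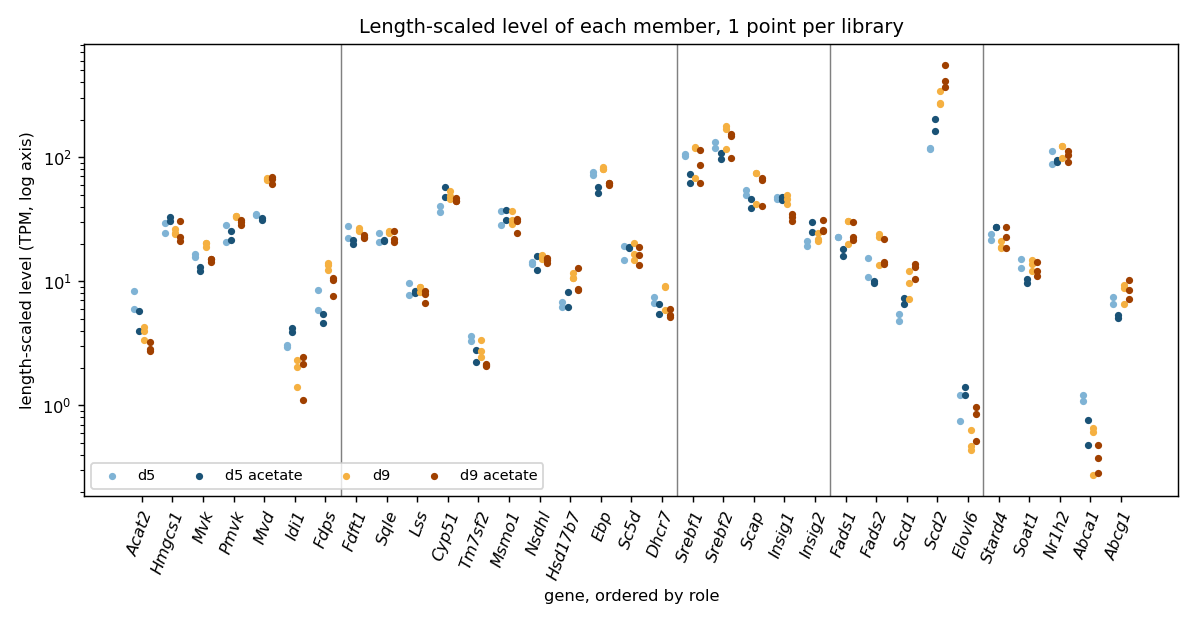
Length-scaled level (TPM, log axis) of each of the 33 members, ordered by role from the mevalonate steps on the left to sterol transport on the right, with 1 point per library coloured by group. Scd2 reaches the highest level, with a d9 acetate mean of 445 TPM, and Elovl6 and Abca1 lie lowest.

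Acetate moved few members past the threshold. With the changes at d5 and d9 averaged, Ebp, Mvk and Soat1 fell and Scd2 rose (edgeR quasi-likelihood test, adjusted p under 0.05 over 13182 genes). That is 3 lower and 1 higher of 33, where 2.54% of all tested genes were called lower, 3.35% higher and 5.89% in either direction. At an unadjusted p under 0.05, 11 members were lower and 5 higher, beside 11.8% and 13.4% of all tested genes. At d9 alone no member was called, beside 0.0303% of all genes, all of them higher. At d5 alone no member was called, beside 1.52% of all genes (0.66% higher and 0.865% lower). At an unadjusted p under 0.05, 6 members were lower and 2 higher at d9, beside 7.19% and 8.18% of all genes, and 9 were lower and 3 higher at d5, beside 9.42% and 10.4%. The DESeq2 Wald test called 1 member higher and 3 lower at d9 and 1 higher and 2 lower at d5. It also called more of all tested genes than edgeR at both days, 335 against 4 at d9. Its count for d5 is given in the closing section. Without overlap between libraries, 9 members were lower and 1 higher with acetate at d9, beside 8.79% and 9.9% of all genes, and 17 were lower and 7 higher at d5, beside 29.2% and 29.8%.

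The direction of the small changes was mostly down. At d9 the log2 change was negative for 27 of 33 members, with a median of -0.16, beside 49% negative and a median of 0.01 over all tested genes. At d5 it was negative for 22 of 33, with a median of -0.14, beside 48.7% and 0.01. The sign was the same at both days for 26 of 33 members (78.8%), 21 of them lower with acetate at both, while over all tested genes 63.2% had the same sign and 30.4% were lower at both. All 7 mevalonate enzymes and all 11 enzymes of the squalene and sterol steps had a negative change at d9, with medians of -0.17 and -0.18. At d5 5 of the 7 and 7 of the 11 did. Without the 2 d9 libraries of high ribosomal protein share, 24 of 33 members were negative at d9 (median -0.16), beside 45.8% of all tested genes. Hmgcs1 (0.07 ± 0.13), Idi1 (0.06 ± 0.22) and Sc5d (0.02 ± 0.14) were then positive at d9, which left 5 of the 7 mevalonate enzymes and 10 of the 11 of the squalene and sterol steps negative there. The sign was then the same at both days for 29 of 33, 21 of them lower at both. Over all tested genes 63.7% then had the same sign and 29.1% were lower at both. The desaturases and elongases went the other way in part, with Scd1, Scd2 and Elovl6 positive at both days. A sign alone is no call, and these genes are not independent of each other.

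**Figure D2:**
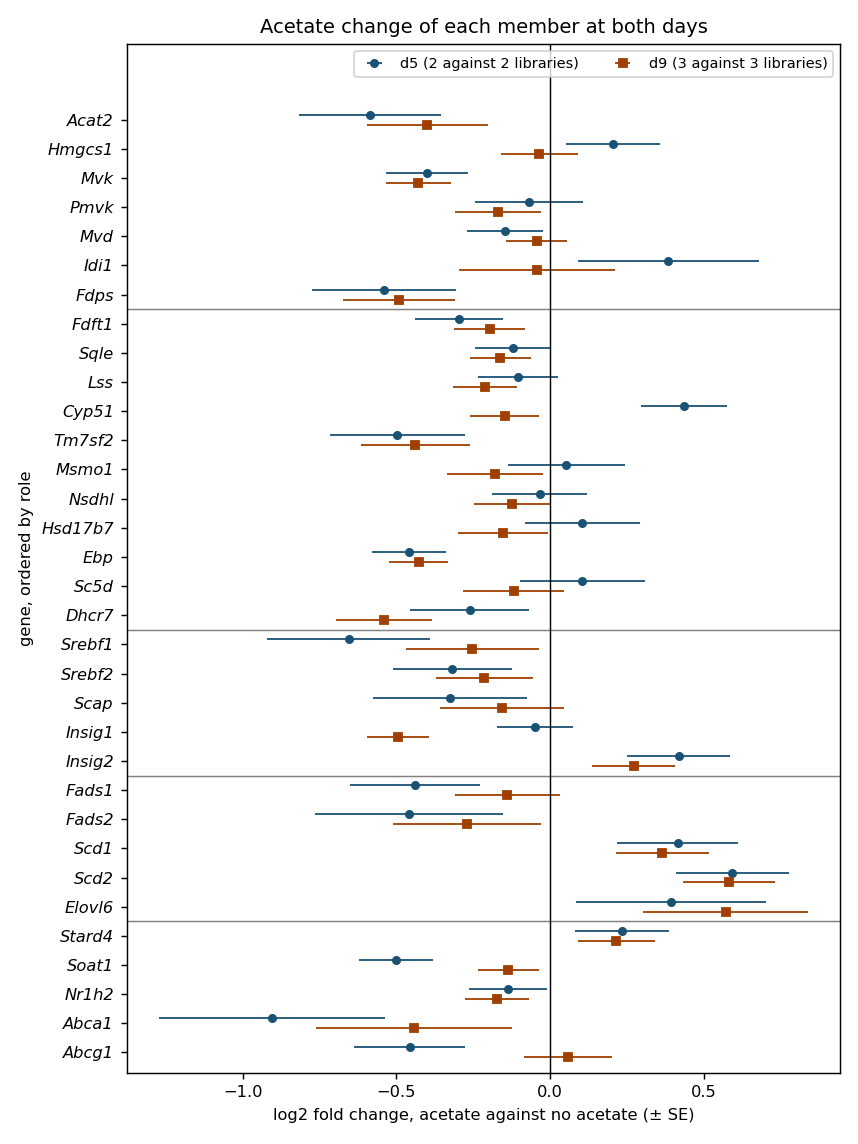
The log2 fold change with acetate of each member at d5 (circles, 2 against 2 libraries) and at d9 (squares, 3 against 3), with bars of 1 SE and the role groups separated by lines. Ebp, Mvk and Fdps lie left of 0 at both days and Scd1 and Scd2 right of 0 at both, while Cyp51 lies right of 0 at d5 and left of it at d9.

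Ebp encodes the sterol isomerase also known as emopamil-binding protein, which acts late in the pathway, and lies on chromosome X from 8185329 to 8193512 (ENSMUSG00000031168, GRCm38). Its libraries held 61.5 and 64.5 CPM at d5 and 44.7 and 47.0 CPM at d5 with acetate. At d9 they held 73.8, 66.2 and 72.0 CPM without acetate and 50.03, 55.8 and 51.8 CPM with it. The acetate libraries lay below those without acetate at both days, with no overlap. Averaged over the days, Ebp fell by 0.44 on the log2 scale (SE 0.08, adjusted p = 0.0141), with changes of -0.46 ± 0.12 (SE, here and for all log2 changes) at d5 and -0.43 ± 0.10 at d9 that were not called alone (adjusted p = 0.081 and 0.115).

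Mvk encodes mevalonate kinase, which phosphorylates mevalonate, and lies on chromosome 5 from 114444269 to 114460591 (ENSMUSG00000041939). It stood at 15.6 and 16.5 CPM at d5, 12.1 and 12.3 CPM at d5 with acetate, 20.02, 19.3 and 20.1 CPM at d9 and 14.0, 15.3 and 14.8 CPM at d9 with acetate. Again every acetate library lay below every library without acetate of the same day. On average over the days Mvk fell by 0.41 on the log2 scale (SE 0.08, adjusted p = 0.0251). Within each day taken alone, 6 of 33 members lay lower with acetate at both days without overlap (Ebp, Mvk, Acat2, Fdps, Tm7sf2 and Dhcr7), as did 4.69% of all tested genes, and 1 member, Scd2, lay higher, as did 5.76%. With the days pooled, all 5 acetate libraries lay below all 5 without acetate for Ebp and Mvk, as for 1.52% of all tested genes, and no member lay higher in this way, as did 1.46%.

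The upstream sequences of these 2 genes are shown because all their acetate libraries lay below all those without acetate. They are set beside those of Hmgcs1, which encodes the synthase before mevalonate and was not called in any comparison, and of Insig1, which had the smallest p of the members at d9. Sequences are from RefSeq (GRCm38.p6), on the strand of the gene, 5′ to 3′, cut from the 250 bases before the RefSeq gene start so that they stop where an annotated transcript of the gene begins. Capitals mark the NF-Y box CCAAT or its reverse complement ATTGG, and in Hmgcs1 also the sterol regulatory element TCACNCCAC.
Ebp, chrX:8193513-8193762, minus strand: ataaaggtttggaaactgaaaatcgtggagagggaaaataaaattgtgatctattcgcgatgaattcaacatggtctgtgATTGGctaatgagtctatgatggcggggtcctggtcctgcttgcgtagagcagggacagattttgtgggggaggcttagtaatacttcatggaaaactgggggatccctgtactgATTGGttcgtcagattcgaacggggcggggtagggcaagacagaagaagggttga
Mvk, chr5:114444019-114444268, plus strand: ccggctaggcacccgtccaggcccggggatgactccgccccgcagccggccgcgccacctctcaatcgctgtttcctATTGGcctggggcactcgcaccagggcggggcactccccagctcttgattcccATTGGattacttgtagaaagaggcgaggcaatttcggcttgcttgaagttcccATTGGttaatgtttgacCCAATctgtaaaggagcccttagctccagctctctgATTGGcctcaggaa
Hmgcs1, chr13:119690101-119690350, plus strand: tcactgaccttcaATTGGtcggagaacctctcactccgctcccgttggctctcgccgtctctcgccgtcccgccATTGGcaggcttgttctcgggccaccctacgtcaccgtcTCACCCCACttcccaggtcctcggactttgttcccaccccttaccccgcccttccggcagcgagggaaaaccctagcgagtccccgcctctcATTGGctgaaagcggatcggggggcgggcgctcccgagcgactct
Insig1, chr5:28071162-28071362, plus strand: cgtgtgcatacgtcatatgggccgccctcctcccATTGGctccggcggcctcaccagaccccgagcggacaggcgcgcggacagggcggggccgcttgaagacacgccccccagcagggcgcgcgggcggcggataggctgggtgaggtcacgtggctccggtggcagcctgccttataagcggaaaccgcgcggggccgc

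NF-Y is a factor that binds beside SREBP at many sterol genes. Windows of 300 bases, from 250 before to 50 after the start, were matched by symbol for 25 of the 33 members. The 5 letters CCAAT, searched on both strands, were present in 19 of the 25 (76%) and in 41.1% of 27025 genes. The Sp1 box GGGCGG was in 22 of 25 (88%) and in 38.2% of genes, the E-box CACGTG in 6 of 25 (24%) and in 8.09%, and TCACNCCAC in 1 of 25, Hmgcs1, and in 1.44%. None of the 4 motifs contains another. Ebp held 2 matches to the NF-Y box, Mvk 5, Hmgcs1 4, of which 1 lies past the start and is not printed, and Insig1 1. Members called with acetate and members not called both held it, and a match describes letters and not binding.

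The other mevalonate enzymes were not called with acetate. Acat2, the thiolase that joins acetyl-CoA units in the cytosol, stood at 7.50 and 5.96 CPM at d5, 3.81 and 5.15 CPM at d5 with acetate, 3.40, 3.60 and 4.05 CPM at d9 and 2.53, 3.30 and 2.56 CPM at d9 with acetate. The acetate libraries were the lower ones at each day, and the average change of -0.49 ± 0.15 on the log2 scale missed the threshold (adjusted p = 0.0815). Fdps, which makes farnesyl diphosphate, held 12.5 and 9.70 CPM at d5, 7.23 and 8.05 CPM at d5 with acetate, 23.4, 18.3 and 21.1 CPM at d9 and 11.2, 17.3 and 16.2 CPM at d9 with acetate. Its groups did not overlap within a day either, with an average change of -0.52 ± 0.15 (adjusted p = 0.0668). The values of both are uncertain where reads were not unique. Of the 50-base stretches of Acat2 transcripts 39.1% also occur in other genes, mainly Acat3, and of those of Fdps 26.2%, mainly in Gm43738. Idi1, which interconverts the isoprenoid units, held 3.81 and 4.09 CPM at d5, 5.16 and 5.15 CPM at d5 with acetate, 1.97, 2.54 and 3.00 CPM at d9 and 2.99, 1.56 and 2.73 CPM at d9 with acetate. The acetate libraries were the higher ones at d5 and overlapped with the others at d9, and neither change was called (0.38 ± 0.30 and -0.04 ± 0.25). The values of Idi1 are uncertain in the same way, since 17.7% of its 50-base stretches also occur in other genes, mainly Gm13502. The synthase gene Hmgcs1, the kinase gene Pmvk and the decarboxylase gene Mvd had average changes of 0.08, -0.12 and -0.10 on the log2 scale, each within 2 SE of 0.

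In the squalene and sterol steps Ebp alone was called with acetate, 1 of 11. The average changes of the other 10 ran from -0.47 ± 0.14 for Tm7sf2, a sterol reductase, to 0.14 ± 0.09 for Cyp51, the lanosterol demethylase. Dhcr7, the reductase of the last step to cholesterol, had -0.40 ± 0.12 (adjusted p = 0.0827), and Fdft1, which makes squalene, -0.25 ± 0.09 (adjusted p = 0.134). Sqle, which oxidises squalene, and Lss, which closes the ring to lanosterol, had -0.14 ± 0.08 and -0.16 ± 0.08. The demethylation enzymes Msmo1, Nsdhl and Hsd17b7 and the desaturase Sc5d were within 1 SE of 0. Cyp51 differed in sign between the days. It held 62.6 and 62.3 CPM at d5 and 79.1 and 89.7 CPM at d5 with acetate, but 93.9, 76.6 and 75.1 CPM at d9 and 71.6, 78.4 and 71.7 CPM at d9 with acetate. Acetate libraries were the higher ones at d5 and overlapped with the others at d9, and the changes were 0.43 ± 0.14 (adjusted p = 0.137) and -0.15 ± 0.11 (adjusted p = 0.58).

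Of the 5 regulators none was called with acetate. Insig1, a retention protein whose gene is itself a well-known SREBP target, held 52.4 and 55.6 CPM at d5, 51.9 and 52.4 CPM at d5 with acetate, 51.8, 54.3 and 52.5 CPM at d9 and 37.5, 40.9 and 34.2 CPM at d9 with acetate. The 3 d9 acetate libraries lay below all 7 others. The change at d9 was -0.49 ± 0.10 on the log2 scale, the smallest p among the members there but not called (adjusted p = 0.0991), and at d5 it was -0.05 ± 0.12. The other retention gene, Insig2, was higher in both d5 acetate libraries (32.3 and 37.0 against 25.8 and 26.1 CPM) and overlapped at d9, with 0.35 ± 0.11 on average (adjusted p = 0.0843).

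The transcription factor genes and Scap varied widely within most groups. Srebf1 held 212 and 227 CPM at d5, 156 and 123 CPM at d5 with acetate, 153, 243 and 249.7 CPM at d9 and 169, 139 and 233 CPM at d9 with acetate. The d9 library of replicate 1 and the d9 acetate library of replicate 2, those of high ribosomal protein share, were the lowest of their groups. Srebf2 was likewise lowest in them, at 329.7 CPM against 447 and 452 CPM and at 286 CPM against 368 and 405 CPM, and so was Scap, at 124 CPM against 198 and 206 CPM and at 121 CPM against 168 and 184 CPM. At d5 the acetate library of higher ribosomal protein share (14.1% against 11.9%) was also the lower for Srebf1, Srebf2 and Scap. Without acetate the d5 libraries (12.0% and 10.8%) held 212 and 227 CPM of Srebf1. They were about alike for Srebf2 (335 and 334 CPM) and Scap (144 and 145 CPM). The average acetate changes of the 3 genes were -0.45 ± 0.17, -0.27 ± 0.12 and -0.24 ± 0.16 with all libraries, and none was called. What set these libraries apart was not tested.

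**Figure D3:**
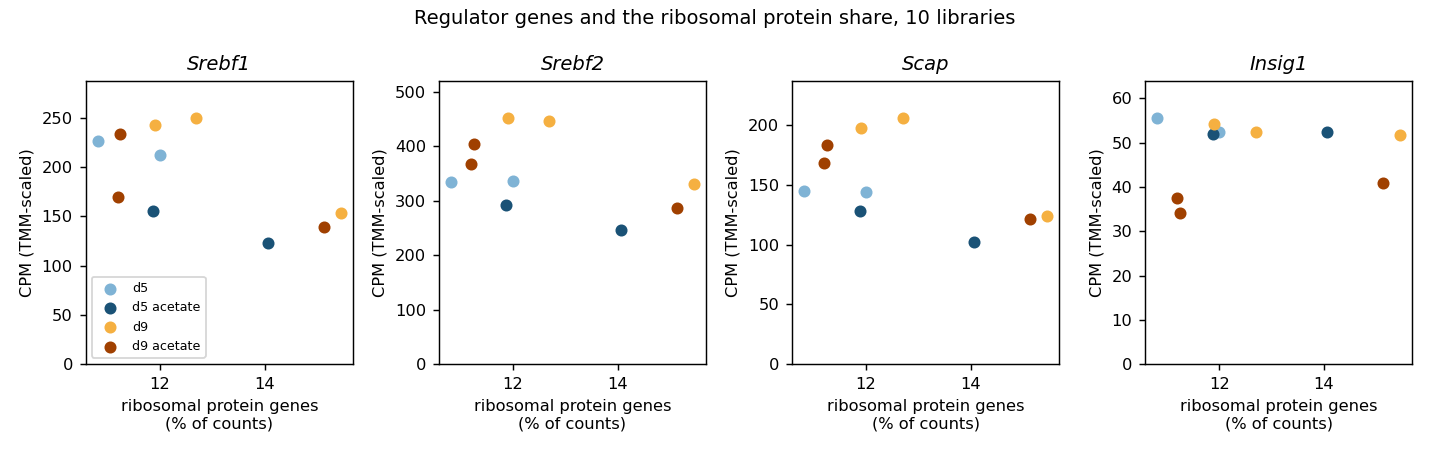
Expression (CPM) of Srebf1, Srebf2, Scap and Insig1 against the percent of counts on ribosomal protein genes, with 1 point per library coloured by group. In the first 3 panels the d9 and d9 acetate libraries above 15% lie below the others of their group, while Insig1 at d9 separates by acetate.

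Without those 2 libraries, an alternative chosen after seeing the data, more members passed with the days averaged. With acetate 13 of 33 were then called lower (Acat2, Mvk, Fdps, Fdft1, Tm7sf2, Ebp, Dhcr7, Insig1, Srebf1, Srebf2, Scap, Abca1 and Soat1) and 4 higher (Insig2, Stard4, Scd1 and Scd2). Over all genes tested the share called rose as well, to 10.5% lower and 10.1% higher. At d9 alone Insig1 (log2 -0.56 ± 0.10, adjusted p = 0.0337) and Dhcr7 (-0.68 ± 0.15, adjusted p = 0.0477) were then lower, where 1.65% of all genes were called (1.18% higher and 0.464% lower). At d5 alone, where the same libraries set only the shared estimate of spread, 5 were lower (Ebp, Srebf1, Srebf2, Abca1 and Soat1) and 2 higher (Cyp51 and Scd2), beside 16.7% of all genes (9.66% lower and 7.05% higher).

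Among the genes of fatty acid desaturation and elongation Scd2 rose. It lies on chromosome 19 from 44293674 to 44306864 (ENSMUSG00000025203) and held 228 and 249.6 CPM at d5, 332 and 389 CPM at d5 with acetate, 589.8, 661 and 546 CPM at d9 and 779, 803 and 1110.0 CPM at d9 with acetate. The groups did not overlap at either day, and they stood in 1 order, from d5 through d5 with acetate and d9 to d9 with acetate. The average acetate change was 0.59 ± 0.12 on the log2 scale (adjusted p = 0.023), with 0.59 ± 0.18 at d5 and 0.58 ± 0.15 at d9. Scd1, its paralog, had 0.39 ± 0.12 (adjusted p = 0.0876), and Elovl6 0.48 ± 0.21 (adjusted p = 0.175). The desaturases of polyunsaturated fatty acids, Fads1 and Fads2, had the other sign, -0.29 ± 0.14 and -0.37 ± 0.19, and were also lowest at d9 in replicate 1.

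Soat1, which esterifies cholesterol for storage, lies on chromosome 1 from 156424525 to 156474331 (ENSMUSG00000026600). It held 51.9 and 49.2 CPM at d5, 35.5 and 36.0 CPM at d5 with acetate, 47.1, 51.4 and 49.6 CPM at d9 and 48.4, 43.6 and 42.8 CPM at d9 with acetate. The d5 acetate libraries lay below all others, and the d9 groups overlapped. On average Soat1 fell by 0.32 on the log2 scale (SE 0.08, adjusted p = 0.0414), with -0.50 ± 0.12 at d5 (adjusted p = 0.0697) and -0.14 ± 0.10 at d9 (adjusted p = 0.555). Abcg1, a sterol exporter that LXR induces, likewise was low in 1 group, with 19.1 and 18.7 CPM at d5, 13.7 and 13.8 CPM at d5 with acetate, 19.1, 22.6 and 25.4 CPM at d9 and 21.6, 20.9 and 27.4 CPM at d9 with acetate. Its d5 acetate libraries were the lowest of all 10, with a change of -0.46 ± 0.18 at d5 and 0.06 ± 0.14 at d9, neither of them called. Abca1, another LXR target, had -0.67 ± 0.24 on average (adjusted p = 0.125), the sterol carrier Stard4 0.22 ± 0.10 and the receptor Nr1h2 -0.16 ± 0.08.

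The 4 calls of the average acetate change needed every d5 library. Leaving out any 1 of the 4 d5 libraries ended all 4 calls, with adjusted p of 0.0615 to 0.0798 for Ebp, 0.0552 to 0.114 for Scd2, 0.0904 to 0.111 for Mvk and 0.123 to 0.155 for Soat1, while the signs did not change. At d9, Mvk and Soat1 also lost the call without d9 replicate 2 (0.0687 and 0.11) or without d9 replicate 3 (0.0686 and 0.0992), Scd2 without d9 replicate 3 (0.0668), and Soat1 without d9 acetate replicate 2 (0.0511) or 3 (0.0762). Without d9 replicate 1, 6 members were called lower and 2 higher, beside 5.91% and 6.71% of all tested genes under that setting.

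**Figure D4:**
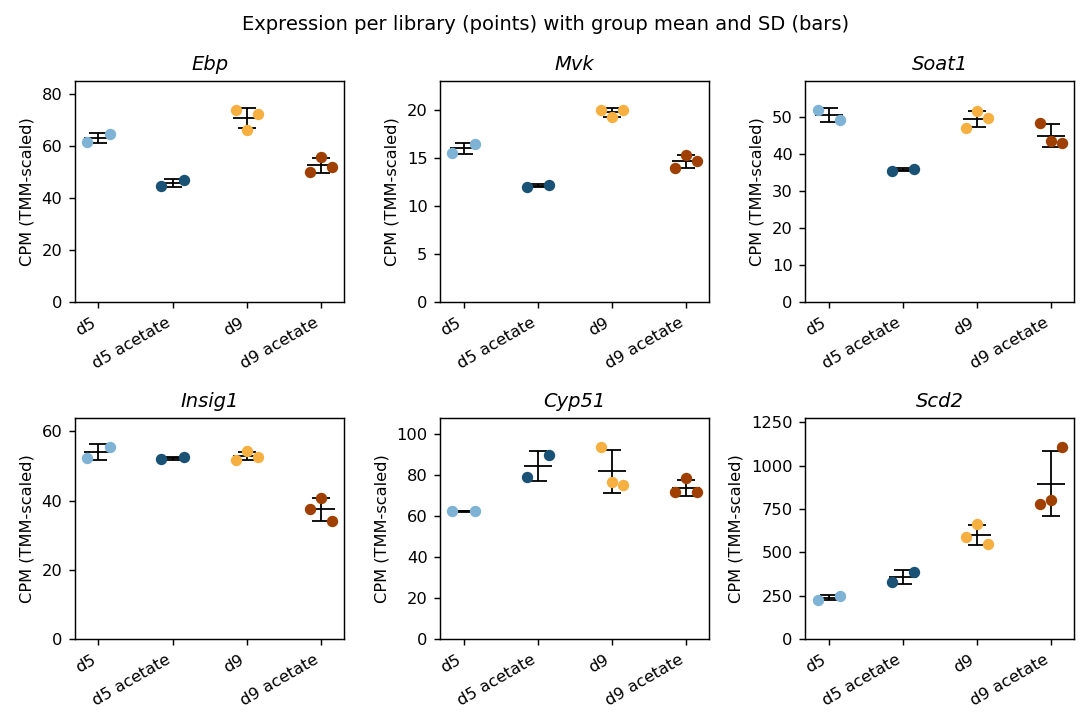
Expression (CPM) per library of Ebp, Mvk, Soat1, Insig1, Cyp51 and Scd2 in the 4 groups, with the mean and SD as bars. Ebp and Mvk are lower with acetate at both days, Soat1 mainly at d5 and Insig1 at d9, Cyp51 is higher with acetate at d5, and Scd2 climbs from 239 CPM at d5 to 897 CPM at d9 with acetate.

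No member had an acetate change that differed between the days past the threshold. The test of that difference (d9 minus d5) called none of 13182 genes, and 1015 genes had an unadjusted p under 0.05, with 4 members among them, 2 negative and 2 positive, beside 3.58% and 4.12% of all genes. These were Cyp51 (-0.58 ± 0.18, adjusted p = 0.433), Insig1 (-0.45 ± 0.16, adjusted p = 0.527), Soat1 (0.37 ± 0.16, adjusted p = 0.62) and Abcg1 (0.52 ± 0.23, adjusted p = 0.64). DESeq2 called 102 genes for this difference and no member.

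Between the days more members were called than with acetate, as were more of all tested genes. The called share of the members was 30.3% without acetate and 36.4% with it, below that of all tested genes in both states. Without acetate 7 of 33 rose from d5 to d9 (Mvd, Scd2, Scd1, Hsd17b7, Fdps, Cyp51 and Pmvk) and 3 fell (Abca1, Elovl6 and Acat2), where 15.9% of all tested genes were called higher, 21.2% lower and 37.1% in either direction. With acetate 9 rose (Mvd, Scd2, Scd1, Abcg1, Fdps, Soat1, Hsd17b7, Fads1 and Fads2) and 3 fell (Insig1, Idi1 and Acat2), beside 18.5%, 23.1% and 41.6%. Without overlap between libraries, 12 members were higher and 5 lower at d9 without acetate, beside 29.7% and 33.4% of all genes, and 15 were higher and 8 lower with it, beside 29.1% and 33.4%. The members' median change was 0.18 without acetate and 0.16 with it, against -0.01 over all tested genes in both. Without the 2 d9 libraries of high ribosomal protein share, 9 members rose and 3 fell without acetate, beside 20.4% and 25.6% of all tested genes (46% in all). Srebf2, Scap and Fads2 were then added to those that rose, and Cyp51 was lost (adjusted p = 0.0542). With acetate 12 rose and 4 fell, beside 25% and 26.4% (51.5% in all), with Srebf1, Srebf2 and Scap added to those that rose and the demethylation enzyme gene Msmo1 (-0.34 ± 0.13, adjusted p = 0.0479) to those that fell. The members' medians were then 0.11 and 0.12. The d5 and d9 cells also differed in the length of culture, which cannot be told apart from the length of restriction.

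Among the mevalonate enzymes Mvd, which decarboxylates mevalonate diphosphate, rose at every setting tried. It lies on chromosome 8 from 122433601 to 122443422 (ENSMUSG00000006517) and held 22.3 and 25.2 CPM at d5 and 48.0, 44.8 and 46.3 CPM at d9, and 22.4 and 20.5 CPM against 44.4, 45.6 and 44.9 CPM with acetate. The d9 libraries were about alike and all above those of d5. The change was 0.97 ± 0.12 on the log2 scale without acetate (adjusted p = 0.00014) and 1.07 ± 0.12 with it (adjusted p = 8.17e-05). Fdps rose by 0.91 ± 0.21 (adjusted p = 0.00675) and 0.96 ± 0.22 (adjusted p = 0.00527), and Pmvk, the next kinase after Mvk, by 0.47 ± 0.16 without acetate (adjusted p = 0.0422). Acat2 went the other way and fell by 0.87 (SE 0.21, adjusted p = 0.00803) and by 0.68 (SE 0.22, adjusted p = 0.0274). Idi1 fell by 1.08 (SE 0.27, adjusted p = 0.00904) with acetate, and its change without acetate was -0.65 ± 0.28 (adjusted p = 0.0861). Enzymes of 1 short pathway changed in opposite directions between the same libraries.

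In the sterol steps Hsd17b7, a ketoreductase, rose in both acetate states, from 12.4 ± 0.179 CPM (SD, n = 2) to 21.0 ± 0.741 CPM (n = 3) without acetate and from 13.3 ± 2.01 to 18.9 ± 3.47 CPM with it (log2 0.76 ± 0.17 and 0.50 ± 0.17, adjusted p = 0.00578 and 0.035). Cyp51 rose without acetate (0.39 ± 0.13, adjusted p = 0.0347) and had -0.19 ± 0.13 with it. None of the other 9 was called, and their changes without acetate ran from -0.29 to 0.18. Ebp, for one, had 0.17 ± 0.11 and 0.20 ± 0.11.

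Of the regulators Insig1 was called between the days with all libraries. With acetate it fell by 0.48 on the log2 scale (SE 0.11, adjusted p = 0.00664), and without acetate it had -0.03 ± 0.11. That comparison shares its d9 acetate libraries with the acetate comparison at d9 and is not separate support for it. Srebf1, Srebf2 and Scap had changes of -0.03, 0.29 and 0.28 without acetate and 0.37, 0.40 and 0.45 with it, with SE of 0.18 to 0.24. Without the 2 d9 libraries that were lowest for these genes, Srebf2 rose by 0.40 ± 0.10 (adjusted p = 0.00702) and Scap by 0.46 ± 0.11 (adjusted p = 0.00481) without acetate. With acetate Srebf1 then rose by 0.53 ± 0.15 (adjusted p = 0.0126), Srebf2 by 0.52 ± 0.10 (adjusted p = 0.00122) and Scap by 0.61 ± 0.11 (adjusted p = 0.000717).

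The stearoyl-CoA desaturase genes rose with time in both acetate states. Scd2 rose by 1.33 ± 0.17 on the log2 scale without acetate (adjusted p = 0.000257) and by 1.32 ± 0.17 with it (adjusted p = 0.000251). Scd1 rose from 9.27 ± 0.227 to 17.4 ± 3.45 CPM and from 12.4 ± 0.519 to 22.4 ± 2.05 CPM (0.91 ± 0.18 and 0.86 ± 0.18, adjusted p = 0.00293 and 0.00326). Fads1 (0.56 ± 0.20, adjusted p = 0.0393) and Fads2 (0.78 ± 0.28, adjusted p = 0.047) rose with acetate and were not called without it. Elovl6 held 2.76 and 1.87 CPM at d5, 3.36 and 2.73 CPM at d5 with acetate, 1.21, 1.44 and 1.04 CPM at d9 and 1.90, 1.33 and 2.26 CPM at d9 with acetate. Its d9 libraries were the lower ones in each acetate state, and it fell by 0.91 (SE 0.30, adjusted p = 0.0343) without acetate and had -0.73 ± 0.28 (adjusted p = 0.0565) with it.

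The 2 sterol exporters differed. Abca1 held 4.41 and 4.38 CPM at d5, 2.97 and 1.74 CPM at d5 with acetate, 1.12, 2.41 and 2.35 CPM at d9 and 1.73, 1.19 and 1.41 CPM at d9 with acetate. The d5 libraries without acetate were the highest of all, and Abca1 fell by 1.16 (SE 0.33, adjusted p = 0.018) without acetate, with -0.70 ± 0.36 (adjusted p = 0.137) with it. Abcg1 rose by 0.76 ± 0.17 (adjusted p = 0.00453) with acetate, with 0.24 ± 0.16 without it. Soat1 rose by 0.33 ± 0.11 (adjusted p = 0.0345) with acetate and had -0.03 ± 0.11 without it. For both Abcg1 and Soat1 the d5 acetate libraries were the low ones.

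Of the 16 members called between the days in either acetate state, Mvd, Scd2 and Scd1 in both acetate states, Hsd17b7 without acetate and Insig1 and Abcg1 with it kept the call in all 15 alternatives, with adjusted p of at most 0.0487 for Hsd17b7 and 0.049 for Insig1. Leaving out d5 replicate 1 ended all 3 calls of a fall without acetate (adjusted p = 0.085 for Abca1, 0.282 for Elovl6 and 0.0936 for Acat2), and without d5 replicate 2 Abca1 (0.0844) and Fdps (0.0802) were not called and 4 members were higher. Elovl6 was also lost without d9 replicate 1 (0.0652) or 3 (0.097). With acetate, leaving out d5 acetate replicate 1 left 4 members higher and ended the calls of Idi1 (0.0502) and Fdps (0.0501), and 5 were higher without d9 replicate 2, which entered through the shared spread. Acat2 was lost with acetate without d5 acetate replicate 2 (0.257) or d9 acetate replicate 1 (0.0687) or 3 (0.0779). Of 15 alternatives the call ended in 7 for Pmvk, 5 for Cyp51, 4 for Hsd17b7 with acetate, 8 for Soat1 and 7 each for Fads1 and Fads2.

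**Figure D5:**
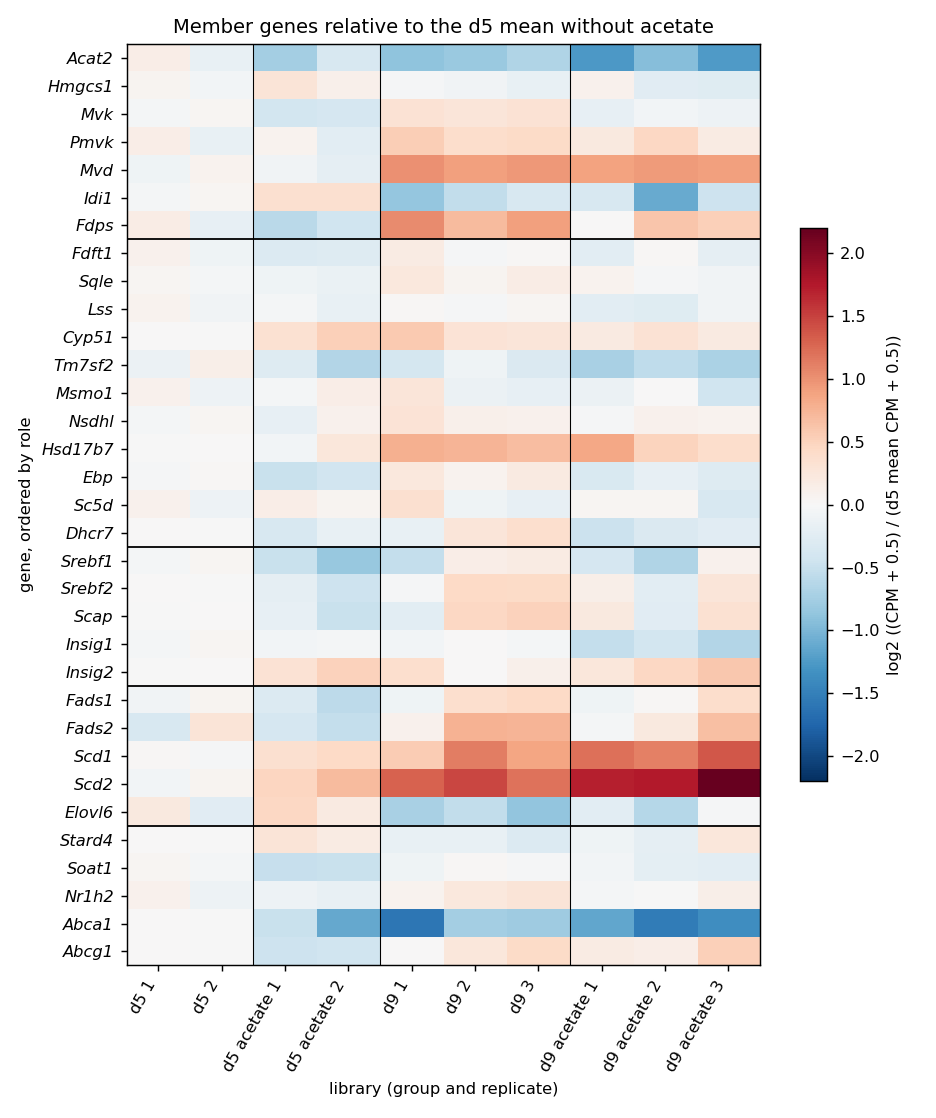
Each member (rows, by role) in each of the 10 libraries (columns), as log2 of the CPM + 0.5 over the d5 mean + 0.5, from blue (lower) to red (higher). Scd2, Mvd, Scd1 and Hsd17b7 are red in the d9 columns, and Fdps in all of them but d9 acetate replicate 1. Acat2, Abca1 and Elovl6 are mostly blue there, while most other rows stay pale.

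Neighbouring genes of the pathway, from lists set out with the members, were also tested for the average acetate change, for which 5.89% of all tested genes were called. Of 9 genes of SREBP processing and turnover none was called, and 1 was lower and 1 higher at an unadjusted p under 0.05, beside 11.8% and 13.4% of all genes. Of 15 tested genes of cholesterol uptake and trafficking 4 were called (26.7%), 2 lower and 2 higher. Of these Npc1, which moves cholesterol out of lysosomes, fell by 0.65 (SE 0.14, adjusted p = 0.0283), with -1.22 ± 0.22 at d5 and -0.08 ± 0.17 at d9. Vldlr, a lipoprotein receptor gene, rose by 0.89 ± 0.20, and Gramd1a, which carries sterol from the plasma membrane, by 0.31 ± 0.07 (adjusted p = 0.0394). Vldlr had 1.33 ± 0.31 at d5 and 0.45 ± 0.23 at d9, and Gramd1a 0.58 ± 0.12 at d5 (adjusted p = 0.04) and 0.04 ± 0.09 at d9. Of 11 tested lipogenic genes Elovl5, an elongase of polyunsaturated fatty acids, rose (0.43 ± 0.11, adjusted p = 0.0438), and of 8 tested LXR and oxysterol genes Smpdl3a, a known LXR target, rose (0.82 ± 0.19, adjusted p = 0.0359). The calls of these 5 genes ended in 7 to 9 of 15 alternatives, among them leaving out either d5 library without acetate.

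The same lists between the days, without acetate, gave 2 genes up and 1 down of 9 for SREBP processing, 2 and 1 of 11 for lipogenic genes, 8 and 1 of 15 for cholesterol uptake and trafficking, and 3 and 1 of 8 for LXR genes. The called shares were 33.3%, 27.3%, 60% and 50% in that order, beside 37.1% of all tested genes. Lbr, a sterol reductase of the inner nuclear membrane, fell from 135 ± 7.11 to 63.8 ± 1.49 CPM (adjusted p = 2.79e-05). Acss2, which turns acetate into acetyl-CoA in cytosol and nucleus, rose from 5.00 ± 0.523 to 19.9 ± 4.88 CPM (log2 1.99 ± 0.21, adjusted p = 7.00e-05). Mylip, a ubiquitin ligase gene that LXR induces, rose from 2.58 ± 0.177 to 9.13 ± 1.62 CPM (1.82 ± 0.27, adjusted p = 0.000502), and the lipid transfer gene Pltp by 1.37 ± 0.21 (adjusted p = 0.000704). The lysosomal sterol carrier gene Npc2 rose by 0.86 ± 0.16 (adjusted p = 0.00176), and Gramd1a from 373 ± 16.5 to 861 ± 11.2 CPM. Smpdl3a fell by 1.20 (SE 0.28, adjusted p = 0.00654), so that known LXR targets, among them Abca1, were called in both directions. Lbr, Acss2, Mylip, Pltp, Npc2 and Gramd1a kept these calls in all 15 alternatives, and Smpdl3a lost its call without d5 replicate 2 (adjusted p = 0.0891).

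Some values cannot be assigned to 1 gene with certainty, since no source used here says whether counting used strand. Among the members with values per library, Fdps overlaps Gm43738, Scd2 overlaps Mir5114 and Srebf1 overlaps Mir6922 on the same strand. Srebf1 also overlaps Rai1 and Scap overlaps 5830462I19Rik on the opposite strand, where Cyp51, Idi1 and Elovl6 overlap Akap9, Gm48574 and Gm35986.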

How the data were processed

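Polyadenylated RNA of 10 samples was sequenced from stranded libraries, per the labels. The deposited files hold raw counts per gene, 1 file per sample, which the authors made before deposit. The submitters' processing notes name deepTools, STAR, featureCounts, DESeq2 and GRCm38 without roles. Their versions, the annotation and the strand setting are not stated in the labels used here.

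Of 53465 genes 53360 were matched to a symbol, and counts on the other 105 made up at most 0.0069% in any library. Groups came from the labels. Counts were scaled by TMM and filtered by group with filterByExpr, which left 13182 genes, and a model of 4 group means was tested by edgeR's quasi-likelihood F test (R 4.3.3, edgeR 4.0.16, limma 3.58.1, robust, 6 residual degrees of freedom). The 6 comparisons were adjusted by Benjamini-Hochberg over all tested genes. SE was taken as |log2 change| / √F. TPM was computed from counts and union exon lengths (GENCODE M21, GRCm38).

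Alternatives were DESeq2 size factors, no filter, the DESeq2 Wald test (1.42.0), a replicate block, leaving out each library and, added after seeing the data, leaving out the 2 d9 libraries of high ribosomal protein share. Scripts were tested on simulated data. The members and lists were chosen with earlier results of these data known. Values per library are given for members past the threshold for acetate or for the difference between days, for the 4 of smallest p in each of these comparisons, and for the 3 highest and 3 lowest changes among those called between days. Those of Srebf1, Srebf2 and Scap, and of Insig2 at d5, are given outside this rule. Of each other list, up to 4 called genes of small p were named, and results of some list genes are left out here. Replicates differed by more than sampling noise (chi-square per degree of freedom 6.00 to 76.5).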

Additional observations from a re-analysis of the deposited data

How the results depend on the processing

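Of 420 values of the members described in full under alternatives, 365 kept their direction and side of the threshold, 40 lost the call, 15 gained it and none changed sign. For acetate at d9, called members were 1 higher with no filter, 1 higher and 3 lower with the DESeq2 Wald test, and 2 lower without the 2 d9 libraries, while all called genes were 197, 335 and 213, and 0 to 18 on leaving out single libraries. For acetate at d5, members were 1 higher with no filter, 1 higher and 2 lower with DESeq2, and 2 higher and 5 lower without the 2 libraries. All called genes were 578, 786 and 2162, 62 with the block, and 0 to 498 on leaving out single libraries, which left 0 to 1 members lower. For the average, members were 3 higher and 5 lower with DESeq2, 4 and 13 without the 2 libraries, and 0 to 2 and 0 to 6 on leaving out single libraries. All called genes were 1435, 2667, 484 with the block, and 27 to 1659. Between days, leaving out single libraries gave 4 to 7 members higher, 0 to 4 lower and 2803 to 5425 genes without acetate, and 4 to 11 higher, 2 to 4 lower and 3108 to 6048 genes with it. For the difference between the days, all called genes were 99 with no filter, 102 with DESeq2, 255 without the 2 libraries and 0 to 1 on leaving out single libraries.

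Whether replicate numbers pair the samples is not labelled and cannot be told from so few libraries per group. Deviations of same-numbered d9 libraries without and with acetate correlated at -0.14, -0.39 and 0.33. D9 replicate 1 correlated best with d9 acetate replicate 2 (0.51), both of high ribosomal protein share. With the replicate block the average acetate change called 1 member higher and 2 lower, with Soat1 at an adjusted p of 0.0736, and Elovl6 between days without acetate stood at 0.0507. Depth limits the members of few counts, such as Elovl6, Abca1 and Idi1.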
